A study of Homo sapiens with 2 samples.

Results

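The miR-17-92 cluster and its paralogs, the miR-106b-25 and miR-106a clusters, were followed in small RNA that came down with the long noncoding RNA UCA1. The members were the 10 guide strands of these clusters, chosen by name: hsa-miR-17-5p, hsa-miR-18a-5p, hsa-miR-19a-3p, hsa-miR-20a-5p, hsa-miR-19b-3p, hsa-miR-92a-3p, hsa-miR-106b-5p, hsa-miR-93-5p, hsa-miR-25-3p and hsa-miR-106a-5p. They are 10 of the 2588 mature miRNA names in the tables. The pulldowns were made from MDA231 (MDA-MB-231), a human basal-like breast cancer line. MDA231-UCA1-MS2 cells stably expressed UCA1 carrying repeats of the MS2 hairpin, and the other pulldown came from MDA231-Con cells, whose construct the labels do not describe; the study's own name for the ratio, UCA1-MS2/MS2, calls the comparator MS2. Lysates were mixed for 5 h with the MS2 coat protein fused to maltose-binding protein (MBP-MCP) on amylose resin, washed 3 times and eluted with 20 mM maltose. There was 1 library for each cell line, so no spread between pulldowns could be estimated and no test was made. Intervals are 95% and cover counting error alone, as the reads carried no molecular identifiers and need not be separate molecules.

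A miRNA guides Argonaute proteins to RNAs that pair with its seed, the bases near the 5′ end. Clusters of miRNAs are cut from a single primary transcript, and the clusters followed here arose from each other by duplication, so that paralogs share seeds. miR-17-92 is a well-known oncogenic cluster, and the miR-17, miR-18, miR-19 and miR-25/92 seed families that it holds have different targets.

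The mature sequences are shown because the comparisons below are made between seed families. They were taken from RefSeq (GRCh38.p14), in which all 10 members were found, with bases 2 to 8, the seed, in capitals. The seed AAAGUGC was shared by 5 members.

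hsa-miR-17-5p: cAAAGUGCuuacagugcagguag
hsa-miR-20a-5p: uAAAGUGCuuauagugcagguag
hsa-miR-93-5p: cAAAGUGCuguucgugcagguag
hsa-miR-106a-5p: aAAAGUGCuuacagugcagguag
hsa-miR-106b-5p: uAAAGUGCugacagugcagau

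Counted from 1 at the 5′ end, miR-17-5p and miR-20a-5p differed at 2 bases (C1U and C12U), and miR-17-5p and miR-106a-5p at the terminal base alone (C1A). miR-93-5p differed from miR-17-5p at 4 neighbouring bases downstream of the seed (U10G, A11U, C12U and A13C). How the authors' alignment divided reads among such near-identical miRNAs is not given in the sources used here, so the counts of miR-17-5p, miR-20a-5p and miR-106a-5p are uncertain to that extent.

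The other seeds belonged to miR-18a-5p, to the pair of miR-19 members, and to miR-92a-3p with miR-25-3p.

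hsa-miR-18a-5p: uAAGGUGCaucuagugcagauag
hsa-miR-19a-3p: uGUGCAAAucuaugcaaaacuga
hsa-miR-19b-3p: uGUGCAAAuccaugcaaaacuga
hsa-miR-92a-3p: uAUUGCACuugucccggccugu
hsa-miR-25-3p: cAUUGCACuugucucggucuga

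The miR-17-92 members lie within 1 stretch of MIR17HG (chr13:91347820-91354579, plus strand, GRCh38), from miR-17-5p at chr13:91350618-91350640 to miR-92a-3p at chr13:91351361-91351382, and are exonic in 2 and intronic in 1 of its 3 annotated transcripts. The miR-106b-25 members lie on the minus strand in an intron of MCM7, a gene of the replicative helicase, in each of the 8 annotated transcripts that span them (miR-106b-5p at chr7:100094043-100094063, miR-93-5p at chr7:100093815-100093837 and miR-25-3p at chr7:100093571-100093592). miR-106a-5p is encoded at chrX:134170244-134170266. Mature miR-19b-3p and miR-92a-3p are encoded identically on chromosomes 13 and X. Their reads were counted with miR-17-92 and could not be divided between the loci.

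The UCA1-MS2 library held 20037 miRNA counts and the control library 72579. These were 0.162% and 0.562% of the library totals behind the authors' RPM (reads scaled by library total), 12405522 and 12912336. Levels are therefore given both as a share of the summed miRNA counts and as RPM. Across the 90 miRNAs with counts in both libraries, the log2 ratio of UCA1-MS2 over control had a median of 0.38 by share and -1.42 by RPM, a shift of -1.80 that applies to every miRNA alike. No listed count was under 10, so a listed 0 was taken here as up to 9 counts. That is 0.0449% of the UCA1-MS2 and 0.0124% of the control miRNA counts. The cut-off is read from the values, and the limit does not cover reads that the alignment gave to another miRNA name. All 5 markers of basal breast cancer lines had counts in both libraries (31.5% and 45.8% of the miRNA counts). They moved in opposite directions, with log2 share ratios from -2.62 for miR-100-5p to 2.06 for miR-221-3p. Other cell type lists also differed between the libraries by share, to unlike degrees. The epithelial list, 2 of 6 with counts, summed to 113 counts in UCA1-MS2 (0.564% of the miRNA counts) and 21 in control (0.0289%). The hepatocyte marker miR-122-5p had 488 counts (2.44%) in UCA1-MS2 and 0 in control. The paper reports that this marker associates with the tagged RNA, from PCR of pulldowns, a binding site mutant and luciferase reporters. Where its reads in this library came from was not tested. The muscle list, 1 of 3, summed to 10 counts (0.0499%) and 0, and the white blood cell list, 1 of 5, to 18 (0.0898%) and 0. The erythroid list, 1 of 3, summed to 21 counts (0.105%) in UCA1-MS2 and 54 (0.0744%) in control. By RPM the erythroid list was lower in UCA1-MS2 instead (1.69 against 4.18). The part of these lists in the results below was not tested.

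Among the clusters, 5 of the 10 members had counts, the same 5 in both libraries. miR-17-5p and miR-20a-5p made up a larger part of the UCA1-MS2 than of the control library on either scale, and miR-92a-3p and miR-25-3p, which share the other counted seed, a smaller part. miR-93-5p, which has the seed of miR-17-5p and miR-20a-5p but comes from the primary transcript of miR-25-3p, lay between them. Summed over the members, 416 counts (2.08% of the miRNA counts, 1.89 to 2.28%, Wilson interval) stood against 2055 (2.83%, 2.71 to 2.95%), a share 1.36-fold lower in UCA1-MS2 (1.23 to 1.52). By RPM the sum was 33.5 in UCA1-MS2 and 159 in control, 4.75-fold lower.

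The summed value was set by the seed 25/92 members, which held most of the counts in both libraries, and by itself did not show the opposite order of the seed families. Within the member counts, the seed shared by miR-17-5p, miR-20a-5p and miR-93-5p made up 29.1% in UCA1-MS2 (24.9 to 33.6%) and 2.77% in control (2.15 to 3.58%).

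miR-20a-5p had 64 counts in UCA1-MS2 and 15 in control. That was 0.319% of the miRNA counts (0.25 to 0.408%) against 0.0207% (0.0125 to 0.0341%), and 5.16 against 1.16 RPM. The share was 15.5-fold higher in UCA1-MS2 (8.71 to 29.2) and the RPM 4.44-fold higher (2.50 to 8.39). In log2 the RPM ratio was 2.15. The paper's supplement already lists miR-20a-5p among the miRNAs associated with UCA1, and gives 2.15 under the heading of fold change. miR-20a-5p had the third highest ratio of the 90 miRNAs counted in both libraries, and its intervals in the libraries did not overlap. That ranking leaves out miRNAs listed at 0 in control. Of those, miR-122-5p, miR-3591-3p and miR-10b-5p had log2 share ratios of at least 7.62, 6.59 and 5.35, above the 3.95 of miR-20a-5p.

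miR-17-5p, the founding member of the cluster, had 45 counts in UCA1-MS2 and 13 in control. The shares were 0.225% (0.168 to 0.300%) and 0.0179% (0.0105 to 0.0306%), and the levels 3.63 and 1.01 RPM. Its share was 12.5-fold higher in UCA1-MS2 (6.65 to 25.3) and its RPM 3.60-fold higher (1.91 to 7.28). This was the fifth highest ratio of the 90, again without the miRNAs listed at 0 in control. Besides miR-20a-5p, 3 miRNAs with counts in both libraries had a higher ratio: miR-200b-3p, miR-4709-5p and miR-7641. Both control counts were close to the lowest listed count of 10, so the width of these intervals came mainly from the control library.

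miR-93-5p had 12 counts in UCA1-MS2 and 29 in control, or 0.0599% (0.0343 to 0.105%) and 0.0400% (0.0278 to 0.0574%) of the miRNA counts. The share ratio was 1.5 (0.697 to 3.03), an interval that holds 1, while by RPM the level was 2.32-fold lower in UCA1-MS2 (1.15 to 5.00; 0.967 against 2.25 RPM). The direction for miR-93-5p thus turned with the scale, with a log2 ratio of 0.58 by share, 0.41 by edgeR's TMM, 0.20 by DESeq2's size factors and -1.22 by RPM. Against the median of the 90 miRNAs, which does not depend on the scale, it was 0.20 higher on the log2 scale.

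miR-92a-3p had the most counts of the members in both libraries, 222 in UCA1-MS2 and 1184 in control. These were 1.11% (0.972 to 1.26%) and 1.63% (1.54 to 1.73%) of the miRNA counts, and 17.9 and 91.7 RPM. Its share was 1.47-fold lower in UCA1-MS2 (1.27 to 1.71) and its RPM 5.12-fold lower (4.44 to 5.94). The counting intervals of miR-92a-3p did not overlap between the libraries, but by share the difference was under 2-fold.

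miR-25-3p, the seed partner of miR-92a-3p from the MCM7 intron, had 73 counts in UCA1-MS2 and 814 in control. The shares were 0.364% (0.290 to 0.458%) and 1.12% (1.05 to 1.20%), 3.08-fold lower in UCA1-MS2 (2.42 to 3.97). By RPM it was 10.7-fold lower (8.42 to 13.8; 5.88 against 63.0). It had the lowest ratio of the members and ranked 81 among the 90.

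**Figure D1:**
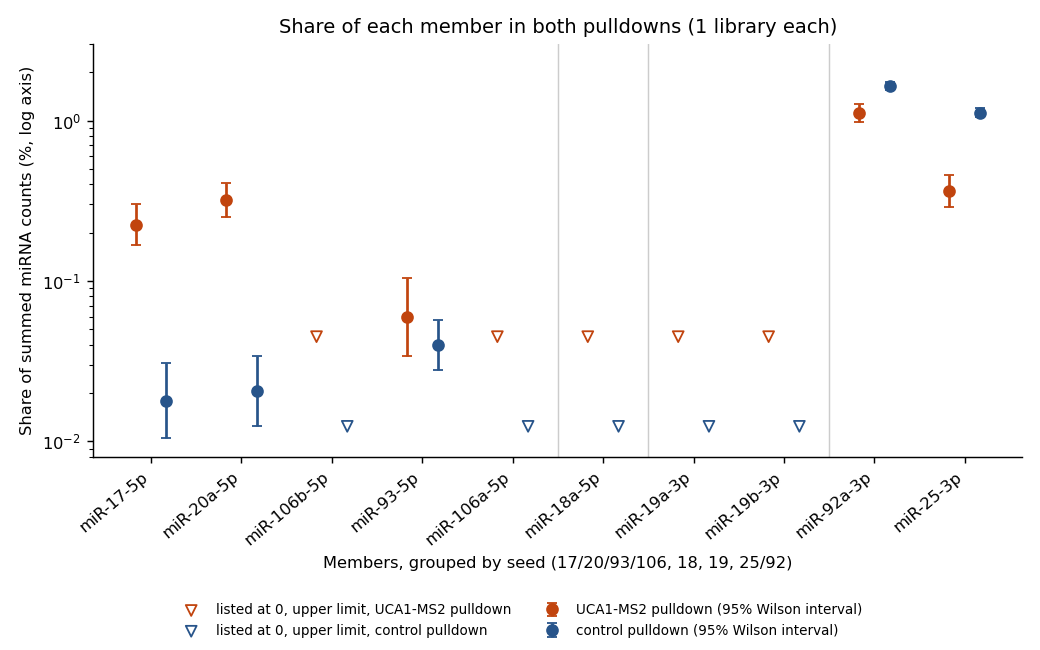
Share of the summed miRNA counts (%, log axis) of each member in the UCA1-MS2 pulldown (red) and the control pulldown (blue), with 95% Wilson intervals, grouped by seed. Open triangles mark the upper limit of a listed 0. miR-17-5p (0.225% against 0.0179%) and miR-20a-5p lie higher in UCA1-MS2, miR-92a-3p and miR-25-3p lower, and 5 members were listed at 0 in both libraries.

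By share, 2 of the 5 counted members were at least 2-fold higher in UCA1-MS2, against 27.8% of the 151 miRNAs with counts in either library, and 1 was at least 2-fold lower, against 12.6%. By RPM, 2 members were at least 2-fold higher, against 7.28% of all, and 3 at least 2-fold lower, against 57%. The 151 include miRNAs listed at 0 in 1 library, whereas all 5 members had counts in both. A miRNA listed at 0 can be called in 1 direction alone, and by share seldom as lower, so these backgrounds are not like for like. Over the 90 miRNAs counted in both, the log2 share ratio had quartiles of -0.79 and 1.42. A share of 2 in 5 is little above the background by share, and with 5 counted members these counts say little about the clusters as a group. The same pair, miR-17-5p and miR-20a-5p, was higher on either scale. The scales are not separate evidence: with a shift of -1.80 for every miRNA, one at least 2-fold higher by RPM is also so by share. Set against the median of the 90 miRNAs, miR-20a-5p was 11.9-fold and miR-17-5p 9.62-fold higher, whereas miR-92a-3p was 1.92-fold and miR-25-3p 4.01-fold lower.

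**Figure D2:**
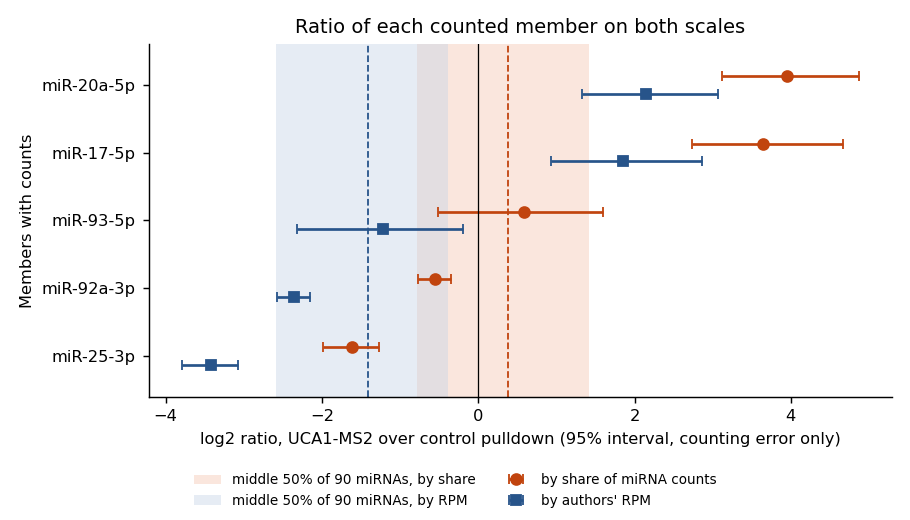
log2 ratio of UCA1-MS2 over control for the 5 counted members, by share of miRNA counts (red circles) and by RPM (blue squares), with 95% intervals from counting error. Bands show the middle 50% and dashed lines the median of the 90 miRNAs counted in both libraries (0.38 by share, -1.42 by RPM). miR-20a-5p and miR-17-5p lie above the band of their scale and miR-25-3p below it, miR-93-5p and miR-92a-3p lie inside it, and the sign of miR-93-5p differs between the scales.

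The order of the members also differed between the libraries. In control it was miR-92a-3p, miR-25-3p, miR-93-5p, miR-20a-5p and miR-17-5p, in which neither miR-93-5p and miR-20a-5p nor miR-20a-5p and miR-17-5p were separated by their counting intervals. In UCA1-MS2 it was miR-92a-3p, miR-25-3p, miR-20a-5p, miR-17-5p and miR-93-5p. There the intervals of miR-25-3p and miR-20a-5p overlapped, as did those of miR-20a-5p and miR-17-5p, while miR-93-5p lay below all others. Among all miRNAs with counts in a library, 139 in control and 102 in UCA1-MS2, miR-20a-5p ranked 122 in control and 35 in UCA1-MS2. The ranks of miR-17-5p were 126 and 43. miR-25-3p went the other way, from rank 14 to 32, and miR-92a-3p from 12 to 18. As the lists differ in length, their ranks are not directly comparable.

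Ratios between members in the same library do not depend on a library total. In control there were 78.9 counts of miR-92a-3p for each count of miR-20a-5p and 91.1 for each of miR-17-5p, and in UCA1-MS2 3.47 and 4.93, although these miRNAs lie in the same primary transcript. The corresponding odds ratio, the change of a ratio between the libraries, was 20.7 (13.2 to 33.4) for the sum of miR-17-5p and miR-20a-5p against miR-92a-3p. The odds ratio between the seed families was 14.4 (10.1 to 20.5). Over all 10 pairs of counted members, the odds ratios of the 6 pairs with different seeds ran from 2.21 for miR-93-5p against miR-92a-3p to 47.1 (25.1 to 93.8) for miR-20a-5p against miR-25-3p. With intervals widened to 99.5% for the 10 pairs, 5 of these 6 excluded 1, the exception being miR-93-5p against miR-92a-3p. The pairs share members and are not independent. No such count was made for pairs of other miRNAs. Log2 share ratios spread widely over the 90 miRNAs counted in both libraries, from -2.62 to 5.55. The counts of pairs therefore describe the members and do not set them apart from other miRNAs.

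Ratios between members with the same seed also differed between the libraries, except in a single pair. For miR-20a-5p against miR-17-5p the odds ratio was 1.23 (0.487 to 3.08), a wide interval that holds 1. miR-20a-5p against miR-93-5p had an odds ratio of 10.1 (3.96 to 27.3) and miR-17-5p against miR-93-5p one of 8.15 (3.08 to 23.1). For miR-92a-3p against miR-25-3p it was 2.09 (1.57 to 2.80). In these 3 of the 4 pairs with a shared seed the 99.5% interval excluded 1. In each of them the member assigned to miR-17-92 was the one relatively more counted in UCA1-MS2, although miR-92a-3p is also encoded on chromosome X. Here too the pairs share members, and no count over pairs of other miRNAs stands beside them. Within the miR-106b-25 transcript, miR-25-3p outnumbered miR-93-5p 28.1 to 1 in control and 6.08 to 1 in UCA1-MS2 (odds ratio of miR-93-5p against miR-25-3p, 4.60, 2.05 to 9.78).

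**Figure D3:**
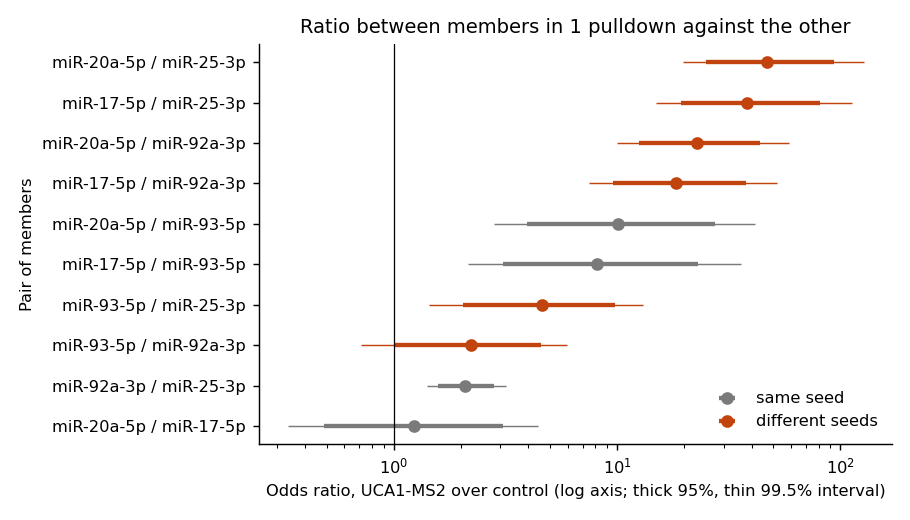
Odds ratio for each pair of counted members (log axis): the count of the former per count of the latter in UCA1-MS2, divided by the same in control, with 95% (thick) and 99.5% (thin) intervals from counting error. Grey pairs share a seed and red pairs do not. The thin interval holds 1 for miR-20a-5p against miR-17-5p (1.23) and for miR-93-5p against miR-92a-3p (2.21), and lies above 1 for the other 8 pairs. The pairs share members, and no like count was made for other miRNAs.

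Summed by seed, the family of miR-17-5p had 121 counts in UCA1-MS2 and 57 in control, a share 7.69-fold higher (5.57 to 10.7) and an RPM 2.21-fold higher (1.60 to 3.08). Its members miR-106a-5p and miR-106b-5p were listed at 0; with the 9 counts that each 0 allows put into one library alone, the share ratio ran from 5.84 to 8.83. The miR-25/92 family had 295 and 1998 counts, a share 1.87-fold lower (1.65 to 2.12) and an RPM 6.51-fold lower (5.76 to 7.38). The miR-18 and miR-19 families were listed at 0 throughout, and no ratio can be given for them.

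Summed by primary transcript, with all reads of miR-92a-3p counted in miR-17-92, the contrast within that cluster cancelled on the share scale. The cluster had 331 counts in UCA1-MS2 and 1212 in control, 1.65% and 1.67% of the miRNA counts, with a ratio of 0.989 (0.873 to 1.12). By RPM it was 3.52-fold lower. miR-17-5p and miR-20a-5p held 32.9% (28.1 to 38.2%) of these counts in UCA1-MS2 and 2.31% (1.60 to 3.32%) in control. The miR-106b-25 cluster had 85 and 843 counts, 2.74-fold lower by share (2.19 to 3.46) and 9.53-fold lower by RPM. The odds ratio of miR-17-92 against miR-106b-25 was 2.71 (2.09 to 3.53).

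The members listed at 0 in both libraries were miR-18a-5p, miR-19a-3p, miR-19b-3p, miR-106a-5p and miR-106b-5p. Several come from transcripts whose other products were counted. In control, the 1184 counts of miR-92a-3p were at least 132 times those of miR-19b-3p, encoded beside it at both loci, and the 814 counts of miR-25-3p at least 90.4 times those of miR-106b-5p. In UCA1-MS2 the corresponding limits were 24.7 and 8.11. The guide strand miR-106b-5p was listed at 0 although the opposite arm of its hairpin, hsa-miR-106b-3p, had 13 counts in UCA1-MS2 and 87 in control, the latter at least 9.67 times the guide. Counts of different mature miRNAs in a ligation-based library also reflect how well each was captured, which was not tested.

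Of the 12 opposite arms, 2 had counts. hsa-miR-106b-3p had a share 1.85-fold lower in UCA1-MS2 (1.03 to 3.61) and an RPM 6.43-fold lower. Its odds ratio against miR-25-3p, from the same transcript, was 1.67 (0.813 to 3.18), and that of miR-93-5p against miR-106b-3p was 2.75 (1.02 to 7.38). hsa-miR-25-5p was listed at 0 in UCA1-MS2 and had 24 counts in control, which is at least 2.56-fold lower by RPM but gives no direction by share, since 9 counts in the smaller library would be a larger share. None of the 6 other miRNAs of the miR-106a cluster, among them miR-18b-5p, miR-20b-5p and miR-363-3p, had counts, so no product particular to that cluster was seen.

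Of the 9 other miRNAs in the reference with a seed of a member, hsa-miR-92b-3p alone had counts. It is encoded apart from the clusters, at chr1:155195237-155195258 on the plus strand, and is shown for its likeness to miR-92a-3p, from which it differs at 3 bases downstream of the seed (U10C, G21C and U22C).

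hsa-miR-92b-3p: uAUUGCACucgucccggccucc

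hsa-miR-92b-3p had 10 counts in UCA1-MS2, the lowest count listed, and 143 in control. Its share was 3.95-fold lower in UCA1-MS2 (2.09 to 8.41) and its RPM 13.7-fold lower. All 3 counted miRNAs with the seed AUUGCAC, from 3 different transcripts or loci, thus had a lower share in UCA1-MS2, although not to the same degree: the odds ratio of miR-92b-3p against miR-92a-3p and miR-25-3p together was 0.474 (0.220 to 0.911). A lower share was common among the 90 miRNAs counted in both libraries, with a lower quartile of -0.79 on the log2 scale. miR-92a-3p, at -0.56, lay above that quartile, so 3 of 3 is not read as a trait of the seed. The base composition of the counted miRNAs followed a like order, apart from miR-25-3p. G and C made up 39.1% of miR-20a-5p, 47.8% of miR-17-5p, 52.2% of miR-93-5p, 50% of miR-25-3p, 54.5% of miR-92a-3p and 63.6% of miR-92b-3p. The part of base composition in the ratios was not tested.

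Exact matches to the seeds were sought in the 36 UCA1 transcripts of GENCODE 29 (chr19:15828206-15836326, plus strand, GRCh38), on the sense strand. These transcripts of a single gene overlap, share sites and run from 532 to 2687 bases, so a share of them is not comparable with a share of separate transcripts and shows no enrichment. The sequence searched for was the reverse complement of bases 2 to 8. For the miR-17 family it is GCACTTT, which was found in 0 of the 36 transcripts, while 15.8% of 1202 other long noncoding transcripts of 1300 to 1588 bases held it. For the miR-25/92 family it is GTGCAAT, found in 0 of the 36 and in 7.40% of the others. For the miR-19 family it is TTTGCAC, found in 0 of the 36 and in 7.65% of the others. Neither counted family thus had such a match. For miR-18a-5p it is GCACCTT, and this was found at 4 positions of the gene, which 17 of the 36 transcripts hold between them; 6.91% of the others held it. A match lay in exon 1 of the 1444-base isoform, the annotated isoform nearest in length to the cloned one, at chr19:15828989-15828995; it is shown with its flanks, the match in capitals.

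UCA1 match to the seed of miR-18a-5p: ctctccaccatGCACCTTgtgactccctc

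The only seed of the clusters with such a match was therefore that of miR-18a-5p, which was listed at 0 in both libraries. Matches to bases 2 to 7, shorter and contained in those above, were looked for after the longer ones had been seen. CACTTT, for the miR-17 family, was at 1 position, in 7 of the 36 transcripts but not in the 1444-base isoform, and in 43.3% of the other transcripts. TGCAAT, for the miR-25/92 family, was at 2 positions, in 32 of the 36, once in the 1444-base isoform (chr19:15835222-15835227), and in 32.1% of the others. The families listed at 0 had such matches too. For the miR-19 family, TTGCAC was at 2 positions, in 28 of the 36, once in the 1444-base isoform, and in 23.7% of the others. For miR-18a-5p, CACCTT was at 8 positions, in 17 of the 36, at 2 sites in the 1444-base isoform, and in 36.9% of the others. A match describes the letters of the reference, not a bound site; the sequence of the expressed construct was not used here.

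UCA1 match to bases 2 to 7 of miR-92a-3p and miR-25-3p: tgcataggatcTGCAATcagaactattg

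Other miRNA families were set beside the clusters on the same counts. The let-7/miR-98 family, a set of differentiation-linked miRNAs, had an odds ratio near 1 with the summed members (1.03 for members against let-7/miR-98, 0.914 to 1.15). Against the miR-30 guide strands the members had an odds ratio of 0.769 (0.673 to 0.879) and against miR-23/24/27, themselves made from clustered and paralogous loci, 0.306 (0.256 to 0.365). The seed families again differed in direction. The miR-17 family had odds ratios of 10.8 (7.77 to 15.1) against let-7/miR-98, 8.06 (5.77 to 11.4) against miR-30 and 3.21 (2.25 to 4.61) against miR-23/24/27. The miR-25/92 family had 0.748 (0.656 to 0.852), 0.561 (0.483 to 0.650) and 0.223 (0.185 to 0.270).

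The log2 share ratios of the 5 counted members spanned 5.57, from -1.62 for miR-25-3p to 3.95 for miR-20a-5p. Those of the 8 let-7/miR-98 miRNAs counted in both libraries spanned 1.93, from -1.33 for let-7b-5p to 0.61 for let-7g-5p. The 4 miR-30 miRNAs spanned 1.34 and the 5 miR-23/24/27 miRNAs 2.45, up to 1.92 for miR-27a-3p. These spans rest on different numbers of miRNAs and of counts and were not tested against each other. Among the 23 other miRNAs with at least 100 counts in each library, the ones nearest to the summed members in ratio were miR-4488 (322 and 1657 counts, log2 share ratio -0.51), miR-3184-3p (135 and 720, -0.56) and miR-3135b (693 and 4141, -0.72), a likeness over 2 libraries.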

How the data were processed

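Small RNA from MS2 pulldowns of MDA231-UCA1-MS2 and MDA231-Con cells was sequenced in 1 library each. The authors deposited, per library, read counts for 2588 mature miRNA names, none of the nonzero counts under 10, and RPM, the deposited counts scaled by the authors to library totals of 12405522 (UCA1-MS2) and 12912336 (control) reads. bcl2fastq and BWA are named in the submitters' processing notes. Their versions, the build, the miRNA annotation, the use of strand and the rule for reads that match several miRNAs are not given in the sources used here. A table of the whole series holds the authors' log2 fold changes and p-values beside the RPM and was not used.

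Here, counts were divided by the summed miRNA counts (20037 and 72579). Ratios were given exact conditional (Clopper-Pearson) intervals, shares Wilson intervals and ratios of ratios conditional odds ratios with exact intervals (scipy 1.17.1), at 95%. The calculations were tried on simulated counts drawn at random from known shares. The simulation had no spread between pulldowns, duplicate reads, lowest listed count or misassigned reads, so it does not speak to those limits. The quasi-likelihood test of edgeR was not run, as 1 library per condition leaves no residual degrees of freedom. A miRNA was called at a difference of at least 2-fold, with 9 counts in place of a listed 0; such limits were called in their own direction alone. Of the planned pairs of seed groups, the single pair with counts gave an odds ratio. Alternatives were the authors' RPM totals, edgeR 4.0.16 TMM, DESeq2 1.42.0 size factors (R 4.3.3), totals without the most counted miRNA of either library, other values for a listed 0, a minimum of 50 counts, a 1.5-fold threshold and omission of members.

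The miRNAs named are the members, their opposite arms, the rest of the miR-106a cluster, miRNAs of the same seed, the 3 nearest in ratio with at least 100 counts, the comparison families and the marker lists. Members and lists were chosen with earlier results of these data known. miR-200b-3p, miR-4709-5p, miR-7641, miR-3591-3p and miR-10b-5p were named after their values were seen. Sequences are from RefSeq (2281 of the 2588 names matched) and transcripts from GENCODE 29. Python 3.11.15, pandas 2.3.3 and matplotlib 3.10.9 were used.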

Additional observations from a re-analysis of the deposited data

How the results depend on the processing

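No paired analysis was possible because there was a single pulldown from each cell line, which also left no replicate to omit. Of 75 alternative values, 21 could not move by construction (a scale cancels in an odds ratio, for example). Of the other 54, 31 stayed within counting error of the value reported (counts of members within 1.5 times), 23 moved beyond it and 0 turned the direction of a value of at least 2-fold; the sign changed where the value reported was near 0, for miR-17-92 and for the members against let-7/miR-98. On the authors' RPM totals the log2 ratio was -2.25 for the 10 members, 1.14 for the miR-17 seed family, -2.70 for the miR-25/92 family, -1.81 for miR-17-92 and -3.25 for miR-106b-25, and 3 members were at least 2-fold lower. With TMM the 10 members came to -0.62. With DESeq2's size factors the values were -0.83 for the 10 members, -1.29 for miR-25/92, -0.40 for miR-17-92 and -1.84 for miR-106b-25, and with totals lacking the most counted miRNAs -0.80, -1.26, -0.37 and -1.81. These changes follow from the scale, which shifts all miRNAs alike. Without miR-20a-5p the log2 ratio was -0.68 for the members, 2.30 for the miR-17 family and -0.31 for miR-17-92, 1 member was at least 2-fold higher, and the log2 odds ratio was 3.20 between the seed families, -0.19 against let-7/miR-98 and -0.61 against miR-30. Without miR-19b-3p and miR-92a-3p, miR-17-92 came to 3.82. Over all 151 miRNAs, 42 were at least 2-fold higher and 19 lower by share, 11 and 86 by RPM, 40 and 23 with TMM, 36 and 32 with DESeq2's size factors, 42 and 67 with 0.5 counts for a listed 0, 24 and 19 with the count minimum, and 51 and 33 at 1.5-fold. Filling every listed 0 of a member with 9 counts was chosen after seeing the data and moved none of the 5 sums, and not the odds ratio between the seed families, beyond counting error; the odds ratios against other families were not run that way. Depth limits the members near 10 counts most: 9 counts are a 3.62 times larger share in UCA1-MS2 than in control.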
